A study of Mus musculus with 8 samples.

Results

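The 7 genes described here make or serve the potassium-dependent proton pumps of the gut: Atp4a, Atp4b, Atp12a, Kcnq1, Kcne2, Kcne3 and Slc26a7. They were taken by name from a table of 23393 gene symbols, with no threshold on their measured values. Of the 7, 6 reached at least 1 FPKM (fragments per kilobase of transcript, scaled to the library total) in at least 2 libraries and were tested. Slc26a7 did not. Atp12a passed through the colon alone, where it was high, so a difference from the colon is built into its inclusion. Kcne2 passed only through stomach libraries, so a difference from the bowel is likewise built into its inclusion.

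Parietal cells of the gastric glands secrete acid through the gastric H,K-ATPase, in which Atp4a is the catalytic alpha subunit and Atp4b the glycosylated beta subunit. The pump takes up luminal potassium for each proton it exports, and that potassium is returned to the lumen by an apical channel built from the pore-forming subunit Kcnq1 and the small accessory subunit Kcne2. Kcne3, another accessory subunit, pairs with the same pore in the basolateral membrane of intestinal and colonic cells, where the channel sustains chloride secretion. Slc26a7 is a chloride-bicarbonate exchanger of the parietal cell, and Atp12a is the alpha subunit of the non-gastric H,K-ATPase, best known from the distal colon.

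Polyadenylated RNA had been sequenced from epithelium of 4 gut regions of E16.5 embryos, with 2 libraries each from hindstomach (the glandular stomach), colon, proximal small intestine (intestine below) and forestomach (the squamous stomach of rodents). Per the labels' protocols no treatment was given, and the embryos were ShhCre;R26YFP/+, in which Cre expressed from Shh switches on a yellow fluorescent reporter. All 4 groups share this genotype description. Hindstomach, colon and intestine epithelium was shaken free in EDTA, more concentrated for the hindstomach, whereas forestomach epithelium was freed with Dispase and peeled by hand, so tissue and isolation cannot be told apart. The labels number the replicates without naming embryos, and p-values therefore speak of the variation among the 8 libraries, part of which may be technical.

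The library labelled forestomach replicate 1 stood apart. Its 10 most abundant genes held 52.5% of summed FPKM, against 6.27% to 17.4% in the other 7 libraries, and 11 mature gastric gland markers summed to 165700 FPKM there, against 1521 and 1981 in the hindstomach, 16.4 and 4.33 in the colon, 20.1 and 9.03 in the intestine and 66.7 in forestomach replicate 2. Most of that gastric sum was Pgc (97970 FPKM), Gkn2 (35990) and Gkn1 (27490). Among the 11 only Gkn3 (12.1) and Cldn18 (175) were lower there than in both hindstomach libraries. The 8 squamous markers of the library labelled forestomach replicate 1 summed to 1047 FPKM, against 33780 in forestomach replicate 2. The fetal transcript H19 stood at 10.1 FPKM in that library and between 4129 and 9609 in the other 7. The library labelled forestomach replicate 1 is named by its label throughout, and fold changes, ratios and correlations that use it are also given without it. Intestinal markers were present in the hindstomach too: 10 of them stood at 12.5% to 24.1% of their intestinal mean in replicate 1 (median 17.4%), and at 10.9% to 25.7% in replicate 2 (median 15.2%), with none listed at 0. The 12 mesenchyme and muscle markers summed to 207 and 336 FPKM in the hindstomach, 667 and 1511 in the colon, 336 and 72.0 in the intestine, and 3678 and 91.8 in the forestomach. Their part in the levels below was not tested. In bulk epithelium, fewer cells of a type and less RNA per cell cannot be told apart.

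The catalytic subunits Atp4a and Atp12a are close relatives. Across the whole coding sequence in GENCODE M21 (GRCm38) they shared 66.6% of 3062 aligned bases, and their transcripts held no identical run longer than 17 bases. Atp4b and its sodium pump counterpart Atp1b1 shared 60.4% of 829 aligned coding bases, with no identical run in their transcripts longer than 15 bases.

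Both subunits of the gastric pump were abundant in the hindstomach and low in the bowel. Atp4a (chromosome 7 from 30712209 to 30725534, protein coding) stood at 76.9 and 258 FPKM in hindstomach replicates 1 and 2, at 0.399 and 0.361 in the colon, at 1.21 and 0.280 in the intestine, and at 1584 and 7.34 in the libraries labelled forestomach replicates 1 and 2. The hindstomach libraries lay above all 4 bowel libraries, while the forestomach libraries lay on either side of the hindstomach pair. Atp4b (chromosome 8 from 13386205 to 13396825, protein coding) followed the same order, at 218 and 435 FPKM in the hindstomach, 0.210 and 0.0439 in the colon, 2.18 and 0.0378 in the intestine, and 2326 and 11.2 in the forestomach. Atp4b ranked 203 and 89 among all genes of the hindstomach libraries and Atp4a ranked 707 and 173. In the library labelled forestomach replicate 1 they ranked 8 and 14. Lack of overlap between tissues of 2 libraries each is a description, here and below, given without its share over all genes.

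Expressed per length, the beta subunit exceeded the alpha subunit wherever both were high. The ratio of Atp4b to Atp4a FPKM was 2.83 and 1.69 in the hindstomach and 1.47 and 1.52 in the forestomach. The forestomach ratios nearly coincided although Atp4a stood at 1584 FPKM in one library and 7.34 in the other. In the bowel the ratio was 0.527 and 0.121 in the colon and 1.80 and 0.135 in the intestine, from levels at or below 2.18 FPKM.

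**Figure D1:**
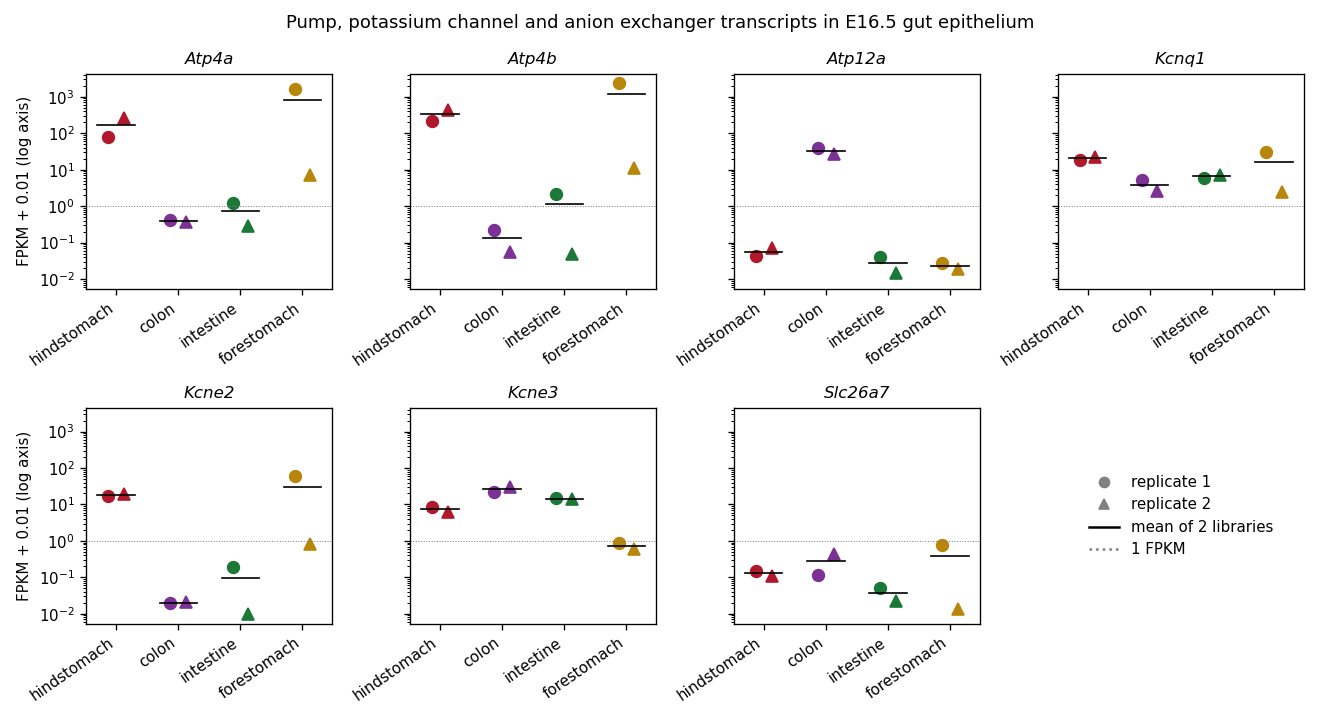
FPKM of the 7 genes (log axis, 0.01 added so that values of 0 can be drawn) in each of the 8 libraries, by tissue. Circles are replicate 1, triangles replicate 2, bars the mean of 2 libraries and the dotted line 1 FPKM. Atp4a, Atp4b and Kcne2 are high in the hindstomach and in the library labelled forestomach replicate 1, Atp12a is above 1 FPKM in the colon alone, and Kcne3 is highest in the colon.

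The non-gastric pump had the opposite distribution. Atp12a (chromosome 14 from 56365068 to 56388550, protein coding) stood at 39.3 and 27.2 FPKM in the colon, against 0.0331 and 0.0589 in the hindstomach, 0.0293 and 0.00423 in the intestine and 0.0179 and 0.00908 in the forestomach. The colon libraries lay above the other 6, all of which were under 0.1 FPKM. Atp12a ranked 1592 and 2389 in the colon libraries. The annotation places an antisense gene, Gm10873, across its downstream part, and since the strand setting is not given in the sources used here, reads of the pair cannot be told apart. The same holds for Atp4b and Gm45410, a gene annotated within it on the other strand.

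Set against each other within a library, the pumps stood in opposite proportion in hindstomach and colon. On the scale of log2((Atp4a + 1)/(Atp12a + 1)), where values under 1 FPKM count for little, the hindstomach libraries stood at 6.24 and 7.93 and the colon libraries at -4.85 and -4.37. In the intestine both catalytic subunits were low, with a single value reaching 1 FPKM. The 4 stomach libraries averaged 6.96 ± 3.17 and the 4 bowel libraries -1.94 ± 3.10 (SD, n = 4 each). The intestine libraries stood at 1.10 and 0.35, so the negative bowel mean came from the colon. The difference of 8.90 had p = 0.0286 in an exact two-sided permutation test over libraries, the smallest p that 70 regroupings allow (adjusted p = 0.0286 over the 2 ratios tested). The test swaps libraries freely, though each group of 4 is 2 tissues with 2 libraries each. Its p therefore does not test stomach against bowel as tissues. Every stomach library, from 3.05 to 10.6, lay above every bowel library, from -4.85 to 1.10. Without the library labelled forestomach replicate 1 the difference was 7.68 (exact p = 0.0286).

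**Figure D2:**
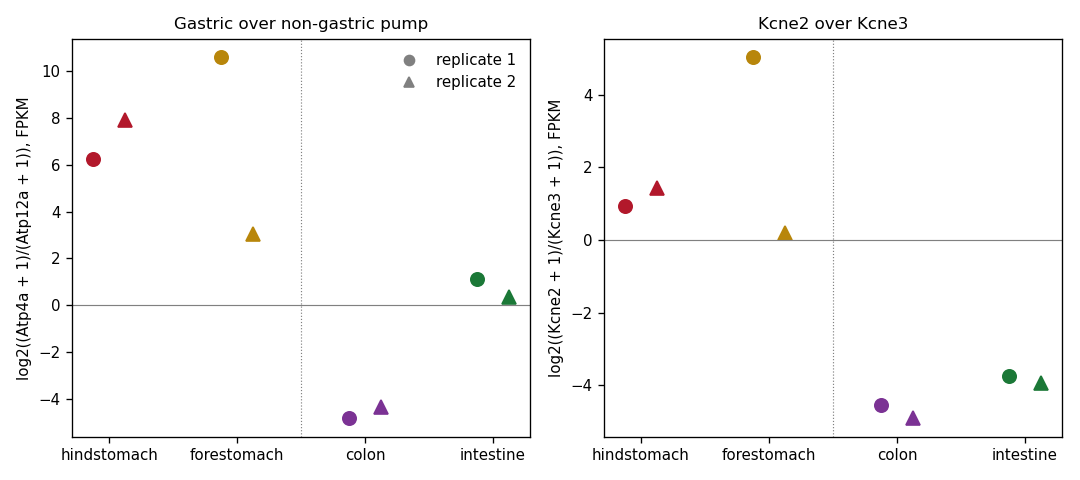
Within-library log2 ratios with 1 FPKM added to each gene, by tissue: Atp4a over Atp12a on the left and Kcne2 over Kcne3 on the right, with circles for replicate 1 and triangles for replicate 2. The 4 stomach libraries lie above the 4 bowel libraries in both panels, and for Kcne2 over Kcne3 the groups lie on either side of 0.

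Among the potassium channel genes, the pore was the most widely expressed. Kcnq1 (chromosome 7 from 143106362 to 143427042, protein coding) stood at 18.1 and 22.5 FPKM in the hindstomach, 5.21 and 2.51 in the colon, 5.96 and 7.04 in the intestine, and 30.4 and 2.35 in the forestomach. It exceeded 2 FPKM in all 8 libraries, and the hindstomach lay above both bowel tissues without overlap. The antisense transcript Kcnq1ot1 lies within Kcnq1 and was listed at 0.879 and 2.45 FPKM in the hindstomach, 0.456 and 1.25 in the colon, 0.180 and 0.282 in the intestine and 0.665 and 0.198 in the forestomach. Kcnq1 was the more abundant of the pair in every library, but unassigned strand leaves their reads unseparated.

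The accessory subunits separated stomach from bowel. Kcne2 (chromosome 16 from 92292389 to 92298129, protein coding) stood at 17.2 and 18.8 FPKM in the hindstomach, 0.00987 and 0.0110 in the colon, and 59.5 and 0.812 in the forestomach. In the intestine it was at 0.178 FPKM in replicate 1 and listed at 0 in replicate 2. The hindstomach pair differed little and lay above all bowel libraries. Kcne3 (chromosome 7 from 100176502 to 100184869, protein coding) ran the other way, at 8.56 and 6.34 FPKM in the hindstomach, 22.5 and 29.3 in the colon, 14.7 and 14.3 in the intestine, and 0.862 and 0.575 in the forestomach. The 4 tissues did not overlap for Kcne3, with the order colon, intestine, hindstomach, forestomach. Kcne3 lies within an annotated antisense gene, Gm34821, and unassigned strand leaves their reads unseparated. For Kcne3 the library labelled forestomach replicate 1 lay close to its partner, and for Kcne2 it did not.

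Relative to the pore, Kcne2 stood at 0.948 and 0.836 of Kcnq1 FPKM in the hindstomach and at 0.00189 and 0.00437 in the colon. Kcne3 stood at 0.473 and 0.282 of Kcnq1 in the hindstomach and at 4.31 and 11.7 times Kcnq1 in the colon. The hindstomach therefore contained transcripts of both accessory subunits, with Kcne2 at 2.01 and 2.97 times Kcne3. Kcne3 in the hindstomach was at 59.1% and 43.7% of its intestinal mean, above the range of the 10 intestinal markers in the same libraries. The part of intestinal RNA in this level was not tested. On the log2((Kcne2 + 1)/(Kcne3 + 1)) scale the stomach libraries averaged 1.90 ± 2.14 and the bowel libraries -4.28 ± 0.54 (SD, n = 4 each). The difference was 6.17 (exact two-sided permutation p = 0.0286, adjusted p = 0.0286), or 5.13 without the library labelled forestomach replicate 1. Here too each group of 4 libraries is 2 tissues, so p does not test stomach against bowel as tissues.

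Slc26a7 (chromosome 4 from 14502430 to 14621805, protein coding) was low everywhere. It stood at 0.141 and 0.0963 FPKM in the hindstomach, 0.109 and 0.425 in the colon, 0.0426 and 0.0123 in the intestine, and 0.760 and 0.0033 in the forestomach. No library reached 1 FPKM, the hindstomach and colon ranges overlapped, and the gene fell short of the filter. With no filter it was not called in any of the 6 comparisons (adjusted p = 0.465 to 0.939).

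Hindstomach against colon was the contrast of gastric with non-gastric pump. A gene counted as called when limma gave a Benjamini-Hochberg adjusted p below 0.05 and a change of 2-fold or more in log2(FPKM + 1), a scale that understates changes of low genes. With all 8 libraries 2 of the 6 genes were called, against 1.5% of all 12894 genes. Atp12a was lower in the hindstomach by -5.01 ± 0.24 (adjusted p = 0.00315, fold changes here being log2 with their SE) and Kcne3 by -1.67 ± 0.23 (adjusted p = 0.0315). Atp12a passed the filter through the colon alone, so its difference from the colon is built into its inclusion. Neither its call nor its place in the counts of this comparison is support. Atp4b at 8.10 ± 2.24 (adjusted p = 0.203), Atp4a at 6.69 ± 2.24 (0.294), Kcne2 at 4.23 ± 1.46 (0.311) and Kcnq1 at 2.18 ± 0.97 (0.454) were not called. These standard errors share the spread of the forestomach pair, with replicate 2 minus replicate 1 at -7.57 (Atp4a) and -7.58 (Atp4b) on that scale. With hindstomach and colon libraries alone, the same fold changes had standard errors of 0.35 (Atp4b), 0.57 (Atp4a), 0.19 (Kcne2) and 0.32 (Kcnq1), and all 6 genes were called, against 5.38% of all genes. Adjusted p was 0.00253 for Atp4b, 0.00871 for Atp4a, 0.00268 for Kcne2 and 0.0306 for Kcnq1. Kcne2 passed the filter only through stomach libraries, so neither its calls here nor its place in the counts of this comparison is support. Without the library labelled forestomach replicate 1 all 6 were called as well, against 6.96% of all genes, and likewise without forestomach replicate 2, against 6.91%. The Kcne3 call ended without either hindstomach, intestine or colon library (adjusted p = 0.125 to 0.299) and with a pseudocount of 0.1 (0.0681), and the Atp12a call ended without hindstomach replicate 2 (adjusted p = 0.0525).

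Hindstomach against intestine compared the glandular stomach with its distal neighbour, and the 6 comparisons share libraries with one another. None of the 6 genes was called with all 8 libraries by limma, against 5.03% of all genes, and 4 (Atp4a, Atp4b, Kcne2 and Kcne3) had an unadjusted p under 0.05. No share of all genes under that unadjusted level is given here, so this last count has no background. Atp4b was at 7.41 ± 2.24 (log2 fold change ± SE, adjusted p = 0.112), Atp4a at 6.40 ± 2.24 (0.149), Kcne2 at 4.13 ± 1.46 (0.151), Kcnq1 at 1.50 ± 0.97 (0.384) and Kcne3 at -0.89 ± 0.23 (0.0825). Fitted on these 2 tissues alone, Atp4b, Atp4a, Kcne2 and Kcnq1 were called higher in the hindstomach, with adjusted p of 0.00397, 0.00509, 0.00255 and 0.00533, against 17.8% of all genes (10.2% higher). The same 4 were called without the library labelled forestomach replicate 1, against 16.4% of all genes (9.39% higher), and without forestomach replicate 2, against 16.3% (9.35% higher). Kcne3 was under 2-fold in these fits, and was called lower in the hindstomach only with median-of-ratios scaling (-1.14, adjusted p = 0.045). Since Kcne2 passed the filter only through stomach libraries, neither its calls against the intestine nor its place in these counts is support.

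**Figure D3:**
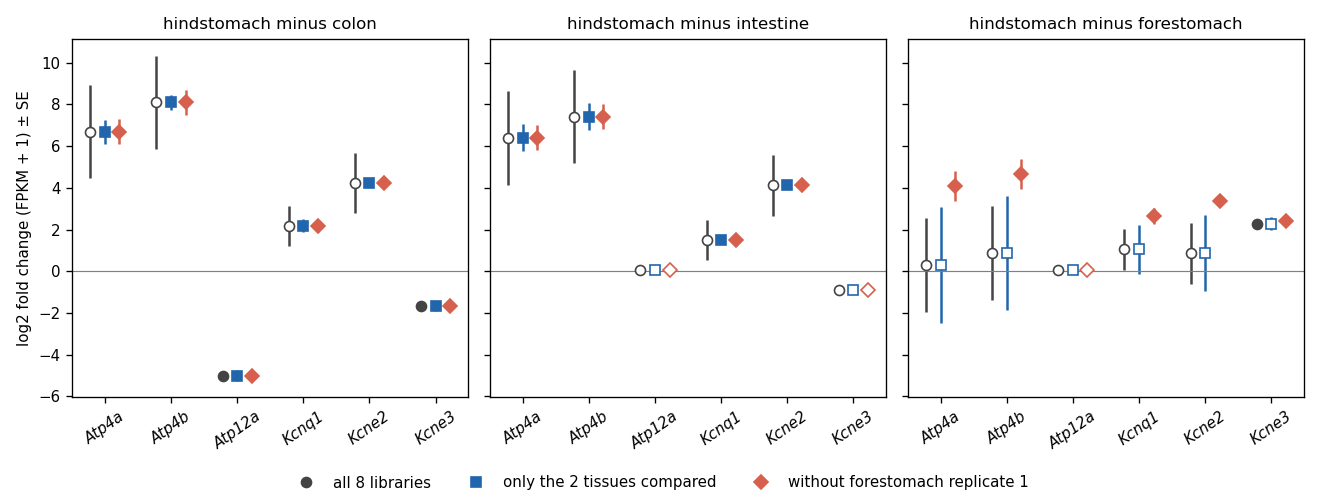
Log2 fold changes of log2(FPKM + 1) with SE (vertical axis) for the 6 tested genes in the 3 comparisons with the hindstomach, from all 8 libraries (circles), from the 2 tissues compared (squares) and without the library labelled forestomach replicate 1 (diamonds). Filled symbols were called. Atp4a, Atp4b, Kcne2 and Kcnq1 keep their fold changes against colon and intestine while their errors shrink, whereas against the forestomach the fold changes themselves move.

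Hindstomach against forestomach, the glandular against the squamous stomach, gave a called difference for Kcne3 alone, at 2.29 ± 0.23 (adjusted p = 0.00678), with 5.59% of all genes called. The call ended without hindstomach replicate 1 (adjusted p = 0.0787) and with these 2 tissues alone (0.107, with 0.613% of all genes called). For the acid-secretion genes the outcome depended on which forestomach library was set against the hindstomach. Atp4a was at 0.30 ± 2.24 with both (-0.14 with median-of-ratios scaling), at 4.09 ± 0.73 (0.0126 after adjustment) without the library labelled forestomach replicate 1, and at -3.48 (adjusted p = 0.0169) without forestomach replicate 2. Atp4b was at 0.88 ± 2.24, 4.66 ± 0.73 and -2.91 in the same 3 fits. Kcne2 was at 0.86 ± 1.46, 3.39 ± 0.19 and -1.67, and Kcnq1 at 1.05 ± 0.97, 2.66 ± 0.37 and -0.57. Without the library labelled forestomach replicate 1, 5 of the 6 genes were called higher in the hindstomach, all but Atp12a, against 13.7% of all genes called higher and 21.2% in either direction. Without forestomach replicate 2, Kcne3 was called higher in the hindstomach and Atp4a, Atp4b and Kcne2 lower, against 25.1% of all genes. The 1 remaining forestomach library is in both cases assumed to vary like the other groups. Kcne2 reached 1 FPKM in the hindstomach alone once the library labelled forestomach replicate 1 was left out, so that call is no support.

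Between the bowel tissues, Atp12a was higher in the colon than in the intestine by 5.05 ± 0.24 (adjusted p = 0.00363). It was the only one of the 6 called, against 0.38% of all genes. Atp12a passed the filter through the colon alone, so this difference and its difference from the forestomach are built into its inclusion. Neither its calls nor its place in these counts is support. The call ended without either intestine library (adjusted p = 0.122 and 0.124). Kcne3 was at 0.78 ± 0.23 (adjusted p = 0.309). Colon against forestomach gave Atp12a at 5.05 ± 0.24 (adjusted p = 0.000214) and Kcne3 at 3.96 ± 0.23 (adjusted p = 0.000476), 2 of 6 genes against 11.6% of all genes. Intestine against forestomach gave Kcne3 at 3.18 ± 0.23 (adjusted p = 0.000876), 1 of 6 against 17.1% of all genes. These 3 calls held with each library left out in turn. The gastric pump subunits were not called against the forestomach with all 8 libraries. Without the library labelled forestomach replicate 1, Atp4a and Atp4b were called lower in the colon than in the forestomach (-2.60, adjusted p = 0.0429, and -3.44, adjusted p = 0.0192, with 7.47% of all genes called lower), and Atp4b lower in the intestine (-2.75, adjusted p = 0.034, with 12.2%). Over the 6 genes the median log2 fold change was 3.21 for hindstomach minus colon, against -0.02 over all genes, and 2.81 for hindstomach minus intestine, against 0.25. These medians pool genes higher and lower in the hindstomach. They include Atp12a and Kcne2, which passed the filter only through tissues where they were high, so they are descriptions and no support.

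Other parts of the parietal cell's machinery were read beside the pump from 3 lists. These held ion transport genes, receptors that regulate acid secretion, and trafficking genes and regulators. Of 18 ion transport genes 17 were tested. With all 8 libraries 5.03% of all genes were called for hindstomach minus intestine and 1.5% for hindstomach minus colon. Kcnj15, an apical potassium channel of parietal cells, stood at 30.3 and 36.1 FPKM in the hindstomach and 0.293 and 0.0274 in the intestine, and was the only gene of the list called in that comparison (4.89 ± 0.99, adjusted p = 0.0491). That call ended without any one of the hindstomach, colon or intestine libraries (adjusted p = 0.0845 to 0.326). None was called by limma between hindstomach and colon, where 4 had an unadjusted p under 0.05. That unadjusted count has no share of all genes beside it. The median log2 fold change of the list was 0.32 against the intestine and 0.37 against the colon, beside 0.25 and -0.02 over all genes. With the library labelled forestomach replicate 1 left out, 6 rose and 1 fell in the hindstomach relative to the intestine, and 4 rose and none fell relative to the colon, in a fit that called 16.4% and 6.96% of all genes. The sodium-proton exchanger Slc9a4, at 21.0 and 28.2 FPKM in the hindstomach against 0.0803 and 0.0276 in the colon, and the chloride channel Slc26a9, at 10.8 and 21.0 against 0.537 and 0.325, were among them with Slc9a2 and Kcnj15. The cytosolic carbonic anhydrase Car2, which supplies protons to the pump, stood at 188 and 319 FPKM in the hindstomach, 102 and 92.7 in the colon and 4.73 and 1.97 in the intestine, and in the same fit was called against the intestine (5.90 ± 0.39, adjusted p = 0.00249). In that fit the log2 fold changes against the colon were 4.59 ± 0.19 (adjusted p = 0.00135) for Slc9a4 and 3.50 ± 0.35 (0.00656) for Slc26a9.

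The receptors that regulate acid secretion, in either direction, were low in the hindstomach, colon and intestine. In the library labelled forestomach replicate 1, Hrh2 reached 13.3 FPKM, Gper1 14.1 and Sstr2 6.53. Of 7 receptor genes 5 were tested and none was called between the hindstomach and another tissue with all 8 libraries by limma, with 1, 2 and 1 of them at an unadjusted p under 0.05 against intestine, colon and forestomach. These unadjusted counts have no share of all genes beside them. The list's median log2 fold change was 1.13 against the intestine and 1.01 against the colon. The histamine receptor Hrh2 stood at 0.653 and 1.97 FPKM in the hindstomach, the gastrin receptor Cckbr at 1.23 and 2.43 and the muscarinic receptor Chrm3 at 1.37 and 1.43. In the intestine Hrh2 was at 0.0237 FPKM and at 0, Cckbr at 0.00893 and 0, and Chrm3 at 0.271 and 0.108. These 3 and Gper1 reached 1 FPKM only in hindstomach libraries and the library labelled forestomach replicate 1. Being higher in the hindstomach than in the bowel is built into their inclusion, so calls of that kind are no support. Leaving out the library labelled forestomach replicate 1, these 3 and Gper1 were called higher in the hindstomach than in the intestine, the largest being Cckbr at 1.46 ± 0.23 (adjusted p = 0.0127), against 9.39% of all genes called higher.

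Of 14 trafficking genes and regulators Rab27b, a small GTPase of regulated secretion, was the only one called with all 8 libraries between hindstomach and bowel. Of all genes 5.03% were called against the intestine and 1.5% against the colon. The list's median was -0.06 against the intestine and 0.11 against the colon. Rab27b stood at 19.6 and 16.4 FPKM in the hindstomach, 3.57 and 4.78 in the colon and 1.88 and 1.47 in the intestine. The change was 1.88 ± 0.21 against the colon (adjusted p = 0.0167) and 2.83 ± 0.21 against the intestine (adjusted p = 0.00634). Leaving out 1 hindstomach, colon or intestine library ended the first call (adjusted p = 0.068 to 0.188), and 1 hindstomach or intestine library the other (0.0751 to 0.125). Rab27b was as high in the forestomach, at 18.8 and 20.3 FPKM. Esrrg, a nuclear receptor known to act in parietal cells, stood at 26.1 and 22.9 FPKM in the hindstomach and 1.80 and 0.763 in the colon, and was called without the library labelled forestomach replicate 1 (3.52 ± 0.25, adjusted p = 0.003). In that fit other genes of the list were lower in the hindstomach, namely the nuclear receptor Hnf4a against both intestine (-1.48 ± 0.19, adjusted p = 0.00813) and colon (-1.08 ± 0.19, adjusted p = 0.0305), and the syntaxin Stx3 (-1.49 ± 0.18, adjusted p = 0.0065) and the nuclear receptor Esrra (-1.23 ± 0.25, adjusted p = 0.0221) against the intestine. In that fit the list thus had genes higher and genes lower in the hindstomach against each bowel tissue.

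**Figure D4:**
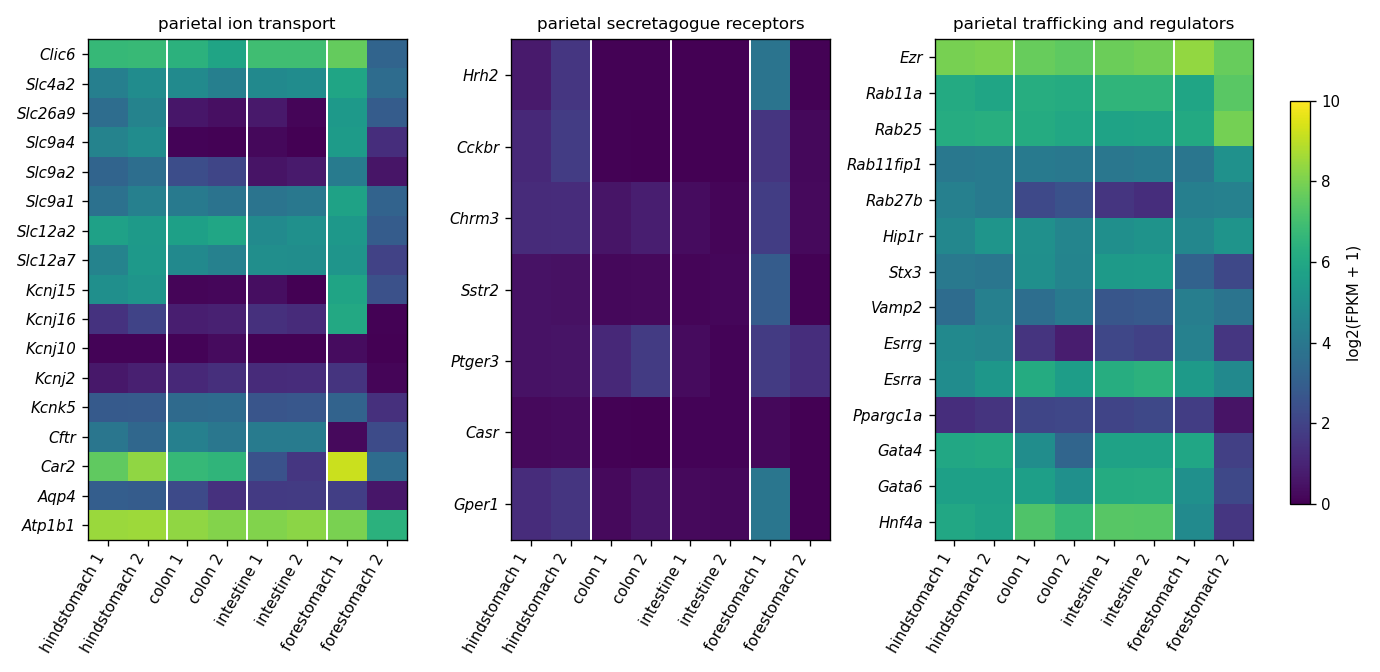
Levels as log2(FPKM + 1), on a color scale of 0 to 10, of genes from the 3 parietal gene lists (rows) in the 8 libraries (columns, white lines between tissues). Slc26a9, Slc9a4 and Kcnj15 are bright in the hindstomach and in the library labelled forestomach replicate 1 and dark in the bowel, and all 7 receptors stay under 2 on this scale outside that library.

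Relatives of the 7 genes were read from 3 further lists. Their calls with all 8 libraries stand beside 5.03% of all genes called for hindstomach minus intestine and 1.5% for hindstomach minus colon. In FPKM the hindstomach levels of Atp4b, 218 and 435, lay on either side of those of Atp1b1, the sodium pump beta subunit, at 357 and 372. Of 14 sodium pump subunits and regulators 11 were tested, with a median of 0.31 against the intestine and -0.73 against the colon. Fxyd3, a small modulator of the sodium pump, was the only one called in the hindstomach against intestine (3.97 ± 0.37, adjusted p = 0.00975) and against colon (2.33 ± 0.37, adjusted p = 0.0466), at 51.3 and 59.4 FPKM in the hindstomach, 8.14 and 12.6 in the colon and 3.12 and 2.14 in the intestine. Each call ended without a library of either tissue compared (adjusted p = 0.0889 to 0.143 against the intestine and 0.12 to 0.379 against the colon).

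Of 7 other Kcne and Kcnq genes 3 were tested, with a median of 0.18 against the intestine and -0.62 against the colon. Kcne1l stood at 0.593 and 0.553 FPKM in the hindstomach and 15.2 and 30.2 in the colon, and was called lower in the hindstomach (-3.84 ± 0.39, adjusted p = 0.0121), the same direction as Kcne3. It was higher in colon replicate 2, as was the sum of the mesenchyme and muscle markers, whose part in its level was not tested. The call ended without colon replicate 2 or without either hindstomach library. Kcne1, the accessory subunit best known for pairing with Kcnq1 in the heart and inner ear, lies near Kcne2 on chromosome 16 (92345982 to 92359468). It stood at 2.82 and 5.56 FPKM in the hindstomach, 0.0109 and 0.00304 in the colon, 4.58 and 0.152 in the forestomach, and at 0.0207 and 0 in the intestine, and was not called against the colon with all 8 libraries (2.31, adjusted p = 0.254). It was called without either forestomach library (adjusted p = 0.00995 without replicate 1 and 0.00947 without replicate 2) and with the 2 tissues alone (0.0234). Kcne1 passed the filter only through the hindstomach and the library labelled forestomach replicate 1. A difference from the bowel is thus built into its inclusion, and its calls against the colon are no support. Of 10 other Slc26 exchangers 6 were tested, with a median of -1.51 against the intestine and -0.99 against the colon. Slc26a1, a sulfate transporter, was the only one called with all 8 libraries between hindstomach and bowel, lower by -2.04 ± 0.22 against the intestine (adjusted p = 0.0127) and by -1.44 ± 0.22 against the colon (adjusted p = 0.0429). Both calls ended without a library of either tissue compared (adjusted p = 0.106 to 0.17 and 0.0867 to 0.383).

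Across the 8 libraries the 2 gastric pump subunits had nearly the same profile, with Pearson's r of 0.994 and Spearman's rho of 1.0 on the log2(FPKM + 1) scale. Kcne2 followed them at r = 0.987 with each, and Kcnq1 less closely at 0.861 with Atp4a (rho = 0.619). Without the library labelled forestomach replicate 1 (n = 7) r was 0.994 for the 2 subunits, 0.978 for Kcne2 with Atp4a and 0.785 for Kcnq1 with Atp4a (rho = 0.429). The libraries fall into tissues and share depth and scaling, so the values describe a pattern and carry no p. Among 9918 genes reaching 5 FPKM in a library, those most like Atp4a were Gif, the gastric intrinsic factor (r = 0.996), the iodide transporter Slc5a5 (0.995) and Atp4b. Most like Kcne2 were Dpcr1 (0.998), Gif (0.997) and the sphingosine phosphatase gene Sgpp1 (0.992). Most like Kcnq1 were the iodotyrosine deiodinase Iyd (0.987), the mitochondrial complex subunit Uqcrb (0.979) and Nqo1 (0.977). These rankings depended on the library labelled forestomach replicate 1. Without it the leading 3 were Muc5ac (0.995), Atp4b (0.994) and Vsig2 (0.993) for Atp4a, Cst8, Dpcr1 and Slc9a4 (0.997 or more) for Kcne2, and Pla2g12a (0.994), Nkx6-3 (0.991) and Itgb6 (0.986) for Kcnq1. Kcne2 was then under 1 FPKM outside the hindstomach, so its r, that with Atp4a included, rest largely on the 2 hindstomach libraries.

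The bowel members had other companions. Genes most like Atp12a were Saa1 (r = 1.00), the posterior homeobox gene Hoxb13 (0.994) and the monocarboxylate transporter Slc5a8 (0.993). Their Spearman's rho with Atp12a was lower, at 0.732, 0.586 and 0.381. Atp12a was under 0.1 FPKM outside the colon, so these r rest on the 2 colon libraries. Those most like Kcne3 were the goblet cell peptide Tff3 (0.993), Mcoln2 (0.992) and the growth factor receptor Fgfr4 (0.992). Hoxb13 stood at 30.3 and 41.1 FPKM in the colon and under 0.1 FPKM in the other 6 libraries. Tff3 stood at 227 and 137 FPKM in the hindstomach, 1382 and 1667 in the colon, 573 and 546.5 in the intestine and 1.36 and 0.764 in the forestomach, the same order of tissues as Kcne3. Without the library labelled forestomach replicate 1 the 3 genes most like Kcne3 were Spink4 (0.999), Clca1 (0.998) and Oaf (0.995), and Steap4 (0.997) stood in place of Hoxb13 for Atp12a.

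Because Atp4a and Kcne2 had like profiles over the libraries, their promoter windows (300 bases from RefSeq on GRCm38.p6, ending 50 bases past the annotated start) are shown. Capitals mark the motif matches found. Atp4a is at chr7:30711959-30712258 and Kcne2, first of its 2 starts, at chr16:92292139-92292438, both on the plus strand.
Atp4a: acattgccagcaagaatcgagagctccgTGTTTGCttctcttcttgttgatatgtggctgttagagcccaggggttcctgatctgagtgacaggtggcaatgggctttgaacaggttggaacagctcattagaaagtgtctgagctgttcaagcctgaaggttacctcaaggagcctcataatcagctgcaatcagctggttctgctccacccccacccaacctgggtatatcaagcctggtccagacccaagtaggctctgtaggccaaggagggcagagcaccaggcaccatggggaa
Kcne2: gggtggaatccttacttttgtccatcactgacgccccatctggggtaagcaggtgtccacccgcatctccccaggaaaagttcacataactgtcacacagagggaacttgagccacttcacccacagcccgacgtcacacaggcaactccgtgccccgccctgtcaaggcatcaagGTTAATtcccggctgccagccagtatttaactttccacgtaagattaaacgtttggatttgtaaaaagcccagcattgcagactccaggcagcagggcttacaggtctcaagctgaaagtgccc

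Both strands were searched for the GATA motif (AGATAA and its 3 variants with T in the first place, G in the last, or both), the estrogen-related receptor motif TCAAGGTCA, the HNF1 core GTTAAT and the FoxA core (TGTTTAC, and likewise TGTTTGC). The Atp4a window held a FoxA core at position -222 relative to the start, a motif in 8.48% of 32851 promoter windows. The Kcne2 window held an HNF1 core at -74, found in 7.1% of windows. Of the 7 genes, Atp4a, Kcne2 and Kcne3 matched the promoter table. The first pair of windows lacked the GATA motif, present in 29.8% of windows, and the estrogen-related receptor motif, present in 0.423%. A Kcne3 window, at chr7:100176420-100176719, held a GATA motif at -231. No match overlapped another.

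The 2 hindstomach libraries disagreed on the pump more than on its channel. In log2(FPKM + 1), replicate 2 minus replicate 1 was 1.73 for Atp4a, with 0.171% of the 12894 genes above it, and 0.99 for Atp4b, with 1.37% above it. The difference was 0.30 for Kcnq1 (15.8% above), 0.12 for Kcne2 (30.8% above) and -0.38 for Kcne3 (7.03% below), against a median of -0.01. These shares keep the sign, so genes that were higher in replicate 1 by as much are not counted beside the pump. Replicate 1 also had the higher sum of 8 squamous markers (184 FPKM, against 9.88 in replicate 2) and of 7 pancreatic acinar markers (3556 against 944 FPKM). The sum of the 11 mature gastric gland markers, like the pump, was higher in replicate 2, at 1981 FPKM, against 1521 in replicate 1. Not every marker followed. Among the 11 only Anxa10 was lower in replicate 2 (356 FPKM in replicate 1 and 334 in replicate 2), and Cldn18 was level (337 and 339). The part of these differences in the pump levels was not tested.

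**Figure D5:**
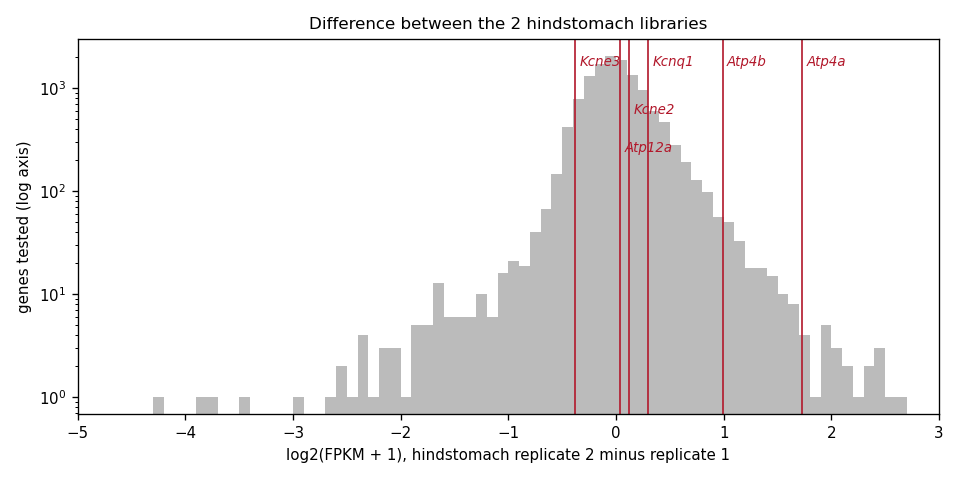
Histogram of the difference in log2(FPKM + 1) between hindstomach replicates 2 and 1 over the 12894 tested genes (number of genes on a log axis), with lines at the 6 tested pump and channel genes. Atp4a at 1.73 and Atp4b at 0.99 lie in the upper tail, and Kcnq1, Kcne2, Kcne3 and Atp12a lie between -0.38 and 0.30.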

How the data were processed

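The authors deposited 1 table of FPKM values per gene symbol, in 8 columns that match the samples. Another 4 columns match no sample and were not used. The submitters' processing notes name STAR 2.4.2a, a read aligner, and mm10 (GRCm38). Not given in the sources used here are the program behind FPKM, its annotation and its use of strand. FPKM divides by the library total, so a few dominant genes lower all others. Absolute depth is unknown. Steps in the low values put depth relative to intestine replicate 1 between 0.426 and 0.948, uncertain by a factor of 2.

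The scale was log2(FPKM + 1). Genes reaching 1 FPKM in 2 or more libraries, 12894 in all, were fitted with limma 3.58.1 in R 4.3.3 (4 tissue means, eBayes with trend, 4 residual degrees of freedom) and Benjamini-Hochberg adjustment within each of 6 comparisons. The fit was tested on simulated data. The 2 ratios were tested by exact permutation over libraries, which takes no account of 2 libraries coming from 1 tissue. Alternatives were another pseudocount, no filter, median-of-ratios scaling, only the 2 tissues compared, a replicate block, each library left out in turn, and a term for the 2 classes of depth, which was chosen after seeing the data. The 7 genes were taken by name, and they, the lists and the tests were chosen with earlier results of these data known. Named beside the 7 genes were up to 4 called genes of a list in a comparison, with all libraries or without the library labelled forestomach replicate 1, by largest fold change, and the 3 genes most like each by Pearson's r, predicted and RIKEN models left out. H19 and Kcnq1ot1 were chosen after their values were seen. Sequences were read from GENCODE M21 (GRCm38) and RefSeq (GRCm38.p6) by gene symbol. Promoter windows matched 3 of the 7 genes. Some genes of the lists are counted but not reported here by name.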

Additional observations from a re-analysis of the deposited data

How the results depend on the processing

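Of the alternatives other than leaving out a library, fitting only the 2 tissues compared moved most counts. Genes called out of 12894 were then 79 for hindstomach minus forestomach (721 with all libraries), 2296 for hindstomach minus intestine (648), 694 for hindstomach minus colon (194), 29 for colon minus intestine (49), 142 for colon minus forestomach (1497) and 599 for intestine minus forestomach (2201), and of the 6 pump and channel genes 0, 4 and 6 were called in the 3 hindstomach comparisons, against 1, 0 and 2. Median-of-ratios scaling called 1 of the 6 for hindstomach minus intestine and moved Atp4a to -0.14 for hindstomach minus forestomach. It moved the median of all genes, in log2 fold change, to 0.03, against 0.39 as deposited, in that comparison (0.03 against 0.25 for hindstomach minus intestine, -0.02 against 0.23 for colon minus intestine, 0.02 against 0.41 for colon minus forestomach and -0.01 against 0.11 for intestine minus forestomach). Of all calls, higher ones then made up 46.7%, against 76.1% as deposited, for hindstomach minus forestomach, 36.1% against 49.2% for hindstomach minus intestine, 57.4% against 79.2% for colon minus forestomach and 55.4% against 66.2% for intestine minus forestomach. A pseudocount of 0.1 gave 1 of the 6 and 103 genes for hindstomach minus colon and 22 genes for colon minus intestine. Without the filter 392 genes were called for hindstomach minus intestine. The depth term gave 396 genes for hindstomach minus forestomach and 23 for colon minus intestine.

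The replicate numbers are shared between tissues, but nothing says that they mark a litter or day, and the differences between replicates 2 and 1 correlated across genes at -0.578 to 0.270 between tissues, so the numbers were not taken as pairs. With the replicate block the ratio differences stayed 8.90 and 6.17 (exact p = 0.0556, the smallest this design allows), 1 of the 6 was called for hindstomach minus colon, and 335, 237, 99 and 9 genes were called for hindstomach minus forestomach, intestine and colon and for colon minus intestine.

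With 1 library left out in turn, the ratio differences ran from 7.68 to 10.2 and from 5.13 to 6.74, and the exact p was 0.0571 without a colon library for Atp4a over Atp12a. Of the 6 genes, 0 to 5 were called for hindstomach minus forestomach, 0 to 4 for hindstomach minus intestine, 0 to 6 for hindstomach minus colon, 0 to 1 for colon minus intestine, 2 to 6 for colon minus forestomach and 1 to 5 for intestine minus forestomach. Genes called ran in the same order from 82 to 3241, 0 to 2115, 4 to 897, 0 to 289, 553 to 3675 and 517 to 4097. For hindstomach minus forestomach Atp4a ran from -3.48 to 4.09 (-0.56 without hindstomach replicate 2), Atp4b from -2.91 to 4.66, Kcnq1 from -0.57 to 2.66 and Kcne2 from -1.67 to 3.39. Of 41 fold changes of single genes, 34 to 37 kept their direction and their side of the thresholds under each of the other pseudocount, no filter, median-of-ratios scaling, the replicate block and the depth term. With only the 2 tissues compared 23 did, 14 gained a call and 4 lost one. Over all fits with 1 library left out, 213 outcomes were alike, 38 gained a call, 72 lost one and 5 changed sign. The block ended 7 calls, among them Kcne3 for hindstomach minus colon (adjusted p = 0.0904). With 2 libraries a tissue and unknown depth, low values such as those of Slc26a7, or of Atp12a outside the colon, support no comparison. The causes of these changes were not tested.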

Other observations

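The colon, the one tissue with Atp12a above 1 FPKM, was also described with 13 genes of colonic potassium, sodium and proton transport, of which 12 were tested. For colon minus intestine 2 were called, both higher, against 0.38% of all genes called. Hsd11b2, the enzyme that shields the mineralocorticoid receptor from glucocorticoids, stood at 10.8 and 12.8 FPKM in the colon, against 0.381 and 0.308 in the intestine (3.25 ± 0.38, log2 fold change ± SE, limma adjusted p = 0.0424). Carbonic anhydrase Car1 stood at 3.30 and 2.53 FPKM in the colon and was listed at 0 in both intestine libraries (adjusted p = 0.0268). It passed the filter through the colon alone, so a difference from the colon is built into its inclusion. The median log2 fold change of the list was 0.95, beside 0.23 over all genes. The mineralocorticoid receptor gene Nr3c2 stood at 3.19 and 3.24 FPKM in the colon, 1.07 and 1.15 in the intestine and 0.93 and 0.0665 in the forestomach, and was called higher in the colon than in the forestomach (1.55 ± 0.31, adjusted p = 0.0261). In that comparison 5 genes of the list were higher and 1 lower, against 11.6% of all genes called, and the lower one was the sodium channel subunit Scnn1a (-1.77 ± 0.44, adjusted p = 0.0494). The calls of Hsd11b2 and Car1 against the intestine and of Nr3c2 against the forestomach ended without any one hindstomach, colon or intestine library (adjusted p = 0.0926 to 0.484 for Hsd11b2, 0.0705 to 0.361 for Car1 and 0.072 to 0.115 for Nr3c2). Mesenchyme and muscle markers were higher in the colon libraries (667 and 1511 FPKM summed) than in the intestine libraries (336 and 72.0), and their part in these differences was not tested.

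The 2-pore potassium channel gene Kcnk1 was called higher in the hindstomach, at 44.2 and 37.7 FPKM, than in the intestine, at 13.9 and 12.5 (1.56 ± 0.17, adjusted p = 0.0129), and than in the forestomach, at 9.01 and 9.13 (2.05 ± 0.17, adjusted p = 0.00371). It stood at 18.3 and 20.1 FPKM in the colon. Unlike Atp4a, it had nearly the same level in both forestomach libraries. The call against the intestine ended without a library of either tissue (adjusted p = 0.114 to 0.196), and the call against the forestomach ended without hindstomach replicate 1 (0.0525) and with these 2 tissues alone (0.085).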
